A study of Homo sapiens with 4 samples.

Results

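Creatine is made, moved and charged with phosphate by a short set of proteins, and 6 of their genes were followed here in Raji cells: GATM, GAMT, SLC6A8, CKB, CKM and CKMT2. They are 6 of the 19775 genes that have a probe set naming them alone, and every probe set whose platform annotation names 1 of them was taken, which gave 20 of 54613 probe sets. GATM had 8 of them, GAMT 3, SLC6A8 6, and CKB, CKM and CKMT2 had 1 each. Of the SLC6A8 probe sets, 3 also name its pseudogenes SLC6A10P or SLC6A10PB. GATM was selected on its measured intensity, which was known to be far lower in the DLEU1-downregulated clone, and the other genes because they share its pathway. All differences of the 6 genes between the clones are therefore given as a description, and where a count of their probe sets past a threshold appears, it is no test of them.

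The cells came from Raji, an established human Burkitt lymphoma line of B-cell origin. 2 arrays held RNA of a clone in which DLEU1, a long non-coding RNA gene, had been downregulated with TALENs, which are engineered nucleases built to cut at a given DNA sequence, and 2 held RNA of a wild-type control clone. Both clones grew in RPMI medium with fetal bovine serum, and the treatment label names the TALENs on all 4 samples, so whether the control clone had also been exposed to them was not settled. Each group is 1 clone. Nothing in the labels says that the duplicates were separate cultures, so the p-values cover no more than the array-to-array spread within a clone, possibly technical, and clone and treatment cannot be told apart.

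In creatine synthesis the mitochondrial enzyme encoded by GATM, also called AGAT, moves an amidino group from arginine to glycine and so makes guanidinoacetate and ornithine. The methyltransferase GAMT then adds a methyl group from S-adenosylmethionine, which gives creatine. SLC6A8 is the sodium-dependent transporter that brings creatine into cells from outside. Creatine kinases pass phosphate between ATP and creatine: CKB in the cytosol of brain and many other cells, CKM in muscle, and CKMT2 in the mitochondria of heart and skeletal muscle. GATM is best known from kidney and pancreas and GAMT from liver, so that many other cells depend on uptake.

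The readings are linear MAS5 signal intensities, the scale on which each array was summarised by itself. The array medians were 18.7 and 20 for the DLEU1-downregulated clone, against 22.6 and 18.4 for the control clone, and the trimmed means 172 and 197 against 163 and 131. DLEU1 itself averaged 570 ± 65.9 in the DLEU1-downregulated clone and 1194 ± 240 in the control clone (SD, n = 2 arrays each), a log2 difference of -1.04 with a limma adjusted p = 3.2e-04. That call was lost without replicate 1 (adjusted p = 0.221) or replicate 2 (0.141) of the DLEU1-downregulated clone and with the replicate number as a block (0.162). Of the 6 B-cell markers listed, the 5 with a probe set of their own read between 584 and 8376 on all arrays. As deposited, limma called 0 of the 5 higher and 0 lower by their brightest probe sets. Of the 3 other tested probe sets of CD22, 2 were past the threshold as lower. Of the 3 others of MS4A1, 1 was past it as higher. With all arrays given the same distribution of values (quantile normalization), 4 of the 5 markers were lower, with a median log2 difference of -0.23, beside 20.6% of all tested genes. Markers of myeloid, epithelial and muscle cells stayed between 0.5 and 33.8, those of T cells between 0.4 and 59.1, and those of fibroblasts between 1.4 and 121. The 5 fibroblast markers summed to 157 and 111 on the DLEU1-downregulated arrays and 186 and 195 on the control arrays. Among them COL1A2 fell (limma adjusted p = 0.00129), while COL1A1 (0.842) and DCN (0.317) did not pass. These values are for the brightest probe set of each gene. COL1A1 had 2 other tested probe sets, and those 2 were past the threshold as higher. Neither the other tested COL1A2 probe set nor any of the 3 others of DCN passed. The 5 T-cell markers summed to 73.5 and 93.7 against 70.4 and 38.9. Of these TRAT1 rose, with 39.5 and 59.1 against 12.7 and 9.7 (limma adjusted p = 1.56e-04). CD3D, CD3E, CD3G and CD2 had lower means in the DLEU1-downregulated clone. The part of these markers in the results was not tested.

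GATM was read clearly in the control clone and lay at or below the array median in the DLEU1-downregulated clone. Its brightest probe set, 216733_s_at, read 18.1 and 13.8 on the DLEU1-downregulated arrays, against 385.6 and 264.4 on the control arrays. The next, 203178_at, read 3.2 and 3.7 on the DLEU1-downregulated arrays, against 165.2 and 119 on the control arrays. On neither probe set did the groups come near each other. In bulk RNA, fewer cells with the transcript and less of it per cell cannot be told apart.

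Relative to its own array's median, 216733_s_at stood at 0.968 and 0.69 times in the DLEU1-downregulated clone and at 17.1 and 14.4 times in the control clone. In rank, that was the 49.4th and 43.2nd percentile of all probe sets on the DLEU1-downregulated arrays and the 86.4th and 85th on the control arrays. The mean intensity of 216733_s_at was 16 ± 3.04 in the DLEU1-downregulated clone and 325 ± 85.7 in the control clone (SD, n = 2 arrays each), which is 20.4-fold lower. For 203178_at the means were 3.45 ± 0.354 and 142 ± 32.7, which is 41.2-fold lower. No detection calls were used here, so the low readings may be background and these ratios have no firm upper end.

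After 16 was added to each intensity before the logarithm, which damps ratios between dim readings, the log2 difference was -3.40 ± 0.25 (SE) for 216733_s_at and -3.01 ± 0.26 for 203178_at, DLEU1-downregulated minus control. They ranked ninth and nineteenth from the lowest end among 32768 tested probe sets. GATM was selected for its fall in this same contrast, so the ranks are no support for it. The probe set 203178_at, at the 18.6th and 21.4th percentile on the DLEU1-downregulated arrays, was bright enough for the test through its control readings. Quantile normalization, which gives all arrays the same distribution of values, left them at -3.52 and -3.11.

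The remaining 6 GATM probe sets were too dim for the filter, so they were tested only when it was left out. The probe set 231686_at, annotated to an expressed sequence tag, read 0.9 and 2.8 on the DLEU1-downregulated arrays and 20.7 and 12.2 on the control arrays. All 4 readings lay below the medians of their arrays, so no fold is given. The other 5 GATM probe sets read between 0.5 and 13.6 on all arrays. In 4 of these 5 the groups overlapped. In 1566861_at they did not, as in 49.7% of all probe sets, with 1 and 0.6 on the DLEU1-downregulated arrays against 2.2 and 1.6 on the control arrays.

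**Figure D1:**
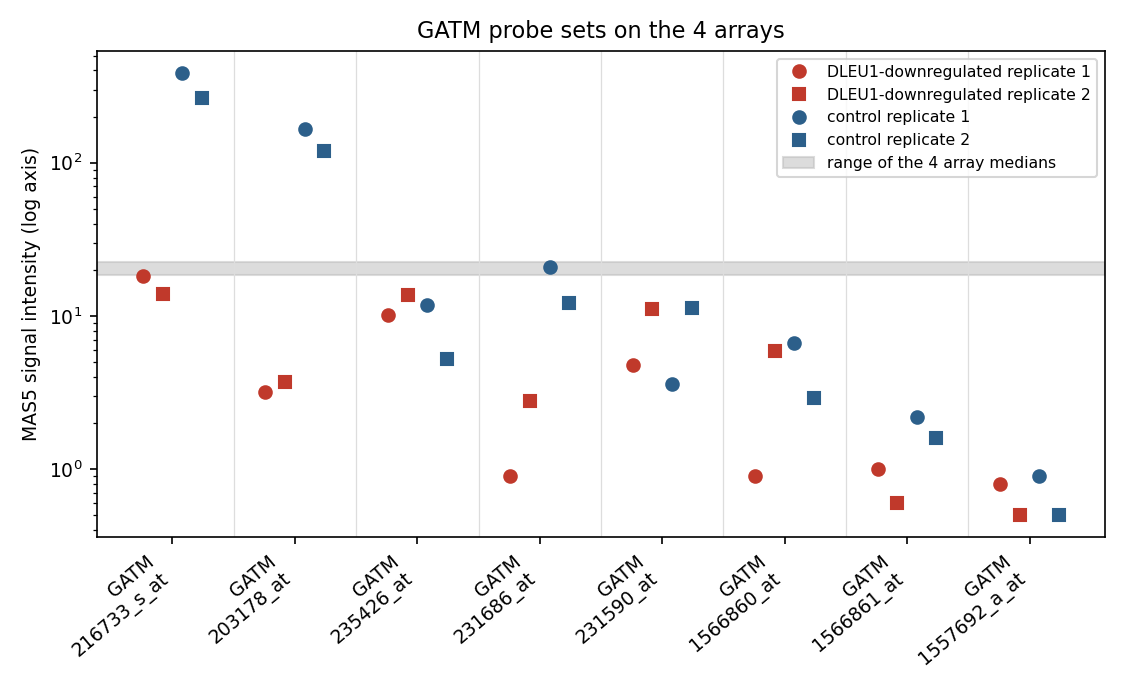
MAS5 signal intensity on a log axis for the 8 GATM probe sets, 1 point per array, with the range of the 4 array medians in grey. In 216733_s_at and 203178_at the DLEU1-downregulated arrays stand at 3.2 to 18.1 and the control arrays at 119 to 385.6, while 5 dimmer probe sets stay at 0.5 to 13.6.

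The start-site window of GATM is shown because this is the gene whose readings lay at the array medians or under them in the DLEU1-downregulated clone, and those of CKB and CKM because they are creatine kinase genes of many tissues and of muscle. The sequences are RefSeq's for GRCh38.p14, which had windows for 5 of the 6 genes, and run 5′ to 3′ from 250 bases before the gene's start to 50 after it. They lie at chr15:45378495-45378794 on the minus strand for GATM, chr14:103522781-103523080 on the minus strand for CKB and chr19:45322826-45323125 on the minus strand for CKM. Capitals mark the CCAAT box, the GC box GGGCGG and the TATA box letters TATAAA, each on either strand; in CKB a CCAAT runs directly into a GGGCGG.
GATM: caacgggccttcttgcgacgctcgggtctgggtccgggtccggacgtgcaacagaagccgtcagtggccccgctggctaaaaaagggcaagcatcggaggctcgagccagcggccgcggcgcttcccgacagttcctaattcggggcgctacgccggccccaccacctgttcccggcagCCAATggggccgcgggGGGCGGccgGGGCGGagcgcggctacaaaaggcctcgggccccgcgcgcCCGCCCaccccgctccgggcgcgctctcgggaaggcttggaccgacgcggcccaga
CKB: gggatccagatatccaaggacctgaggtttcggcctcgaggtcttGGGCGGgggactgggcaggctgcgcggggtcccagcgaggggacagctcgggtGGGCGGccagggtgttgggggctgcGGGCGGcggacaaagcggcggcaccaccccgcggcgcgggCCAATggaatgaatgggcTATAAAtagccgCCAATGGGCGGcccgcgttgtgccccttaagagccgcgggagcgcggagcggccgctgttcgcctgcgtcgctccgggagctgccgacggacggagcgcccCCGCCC
CKM: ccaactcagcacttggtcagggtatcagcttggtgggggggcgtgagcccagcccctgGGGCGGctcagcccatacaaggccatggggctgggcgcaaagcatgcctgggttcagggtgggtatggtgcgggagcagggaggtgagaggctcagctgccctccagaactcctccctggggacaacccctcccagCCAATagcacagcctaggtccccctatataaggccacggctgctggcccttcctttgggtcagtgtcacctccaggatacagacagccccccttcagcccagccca

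The GATM window held 1 CCAAT, beginning 71 bases before the start, with 3 GGGCGG and no TATAAA. CKB held 2 CCAAT, 5 GGGCGG and 1 TATAAA, and CKM 1 CCAAT and 1 GGGCGG. Of 35116 such windows, 34.6% held a CCAAT, 45% a GGGCGG and 11.5% a TATAAA. The CpG dinucleotide occurred 41 times in GATM, 36 times in CKB and 5 times in CKM, against a median of 14 over all windows. These are matches of letters in short windows, and nothing was measured here on binding or methylation.

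GAMT, the methyltransferase of the second step, read higher in the DLEU1-downregulated clone in each of its 3 probe sets. The groups did not overlap in any of the 3, nor did they in 49.7% of all probe sets. The probe set 1552473_at read 161.2 and 200.4 on the DLEU1-downregulated arrays, against 99.5 and 83.1 on the control arrays. In 1552474_a_at the readings were 193.7 and 158 on the DLEU1-downregulated arrays, against 63.3 and 87.4 on the control arrays. The third, 205354_at, came closest to overlap, with 90.7 and 147.8 on the DLEU1-downregulated arrays against 77.9 and 52.1 on the control arrays.

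The ratio of mean intensities, DLEU1-downregulated over control, was 1.98 for 1552473_at, 2.33 for 1552474_a_at and 1.83 for 205354_at. The log2 differences were 0.87 ± 0.26, 1.08 ± 0.26 and 0.73 ± 0.25 (SE). The arrays also differed in overall brightness: the median log2 difference over all tested probe sets was 0.16 as deposited and 0.01 after quantile normalization, where the GAMT differences were 0.62, 0.84 and 0.52. As a percentage of each array's trimmed mean, 1552473_at stood at 93.8% and 102% on the DLEU1-downregulated arrays and at 60.9% and 63.3% on the control arrays. The same measure was 113% and 80.3% against 38.7% and 66.5% for 1552474_a_at, and 52.8% and 75.1% against 47.7% and 39.7% for 205354_at. GAMT, and CKB with its single probe set, had every probe set above the median on all 4 arrays.

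SLC6A8, the creatine importer, was dim in both clones. Its 6 probe sets read between 2.4 and 21 on all arrays, and 5 of them lay below the array median on every array. The probe set 202219_at read 12.4 and 4.1 on the DLEU1-downregulated arrays, against 13.3 and 3.3 on the control arrays, so that the replicates of a clone lay farther apart than the clones. The single tested probe set, 226903_s_at, which also names SLC6A10P, read 11.8 and 13.1 on the DLEU1-downregulated arrays, against 18 and 13.3 on the control arrays, with a log2 difference of -0.15 ± 0.31 (SE). Over the 6 probe sets the log2 differences ran from -0.38 to 0.20. The groups overlapped in 3 of them and not in 226903_s_at, 226904_at and 210854_x_at, beside 49.7% of all probe sets without overlap. Of these, 226904_at was higher in the DLEU1-downregulated clone, while 226903_s_at and 210854_x_at were lower.

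Among the creatine kinases, CKB was the only 1 read above the array median. It read 39 and 26.1 on the DLEU1-downregulated arrays, against 27.5 and 27.4 on the control arrays, so the groups overlapped, and its log2 difference was 0.15 ± 0.27 (SE). The muscle enzyme CKM read 0.5 and 2.3 on the DLEU1-downregulated arrays and 1.7 and 1 on the control arrays, with overlap. The mitochondrial CKMT2 read 6.9 and 9 on the DLEU1-downregulated arrays and 6.6 and 2 on the control arrays. The groups of CKMT2 did not overlap, but its control readings differed by more than the clones did.

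**Figure D2:**
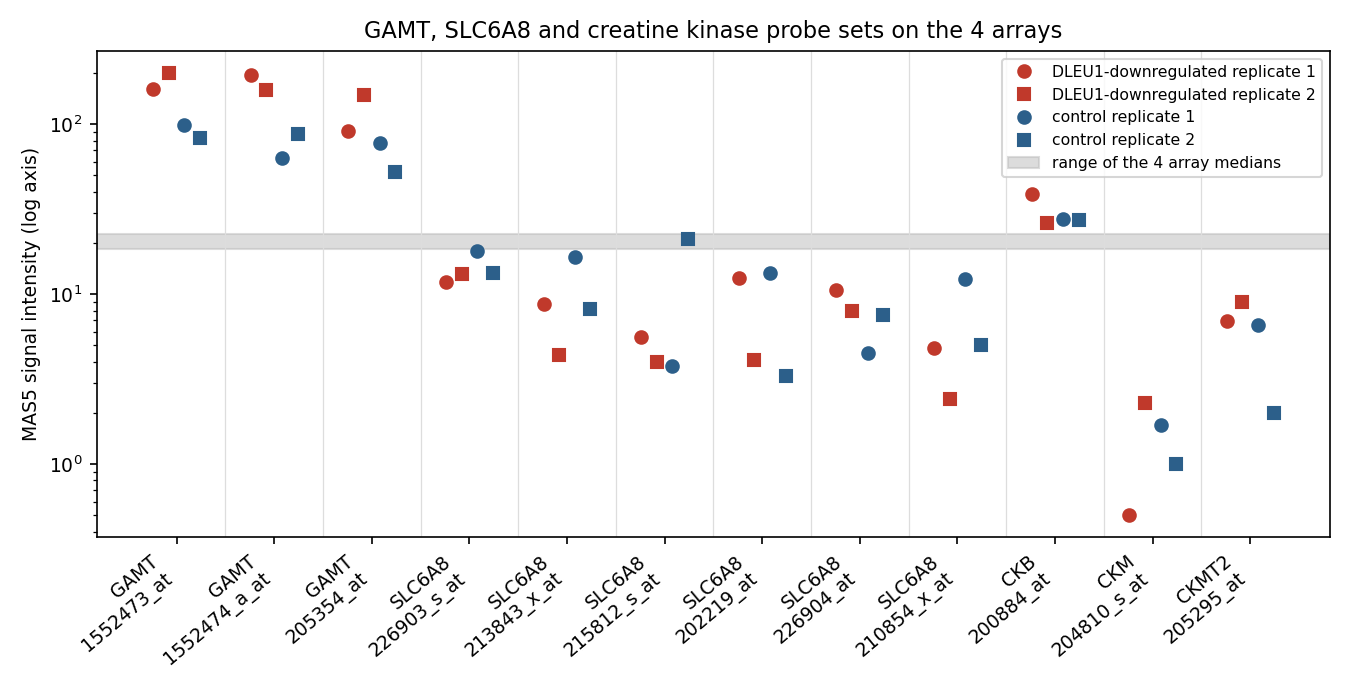
MAS5 signal intensity on a log axis for the 12 probe sets of GAMT, SLC6A8, CKB, CKM and CKMT2, 1 point per array, with the range of the 4 array medians in grey. The GAMT probe sets lie at 52.1 to 200.4 with the DLEU1-downregulated arrays above the control arrays, CKB lies just over the medians, and CKM and CKMT2 stay at 0.5 to 9.

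Counted by the limma fit over all 32768 tested probe sets, 7 of the 20 probe sets were bright enough to be tested and 13 were not. The 3 of GAMT were past the threshold as higher, where 17.2% of all tested probe sets were, and the 2 of GATM as lower, where 5.11% were; the selection rests on the same contrast, so nothing is read from these counts. After quantile normalization 2 of GAMT and 2 of GATM were past it, beside 17% higher and 16.7% lower in all. Over all 20, the groups did not overlap in 11, against 49.7% of all probe sets.

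The ubiquitous mitochondrial creatine kinase is encoded by the near-identical genes CKMT1A and CKMT1B, which share 1 probe set. It read 10.1 and 3 on the DLEU1-downregulated arrays and 10.6 and 1.2 on the control arrays, too dim for a test. SLC16A9, a monocarboxylate carrier family member, read 0.4 and 2 on the DLEU1-downregulated arrays and 2.5 and 10.2 on the control arrays. No probe set in the annotation used here names SLC16A12, a creatine carrier known from kidney and lens. None of the 4 genes in this list was therefore tested.

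Of 5 SLC6 transporters related to SLC6A8, 3 were tested, 0 rose and 1 fell in the limma fit (1 and 1 at an unadjusted p under 0.05), and quantile normalization also gave 0 and 1, with a median log2 difference of 0.14 against 0.19 over all 13284 tested genes. Over all tested genes 20.3% rose and 5.74% fell, or 20.6% and 20.6% after quantile normalization, and each list below is to be set against these shares. SLC6A13, a GABA and taurine transporter, fell to 12.2 ± 5.3 in the DLEU1-downregulated clone, against 44.6 ± 18 in the control clone (limma adjusted p = 0.00141), in a probe set prone to cross-hybridisation. Its other tested probe set did not pass, and the call was lost without control replicate 1 (adjusted p = 0.0759). The taurine transporter SLC6A6 averaged 662 in the DLEU1-downregulated clone and 460 in the control clone (adjusted p = 0.138), and the GABA transporter SLC6A11 averaged 26.9 and 23.7 (adjusted p = 0.788).

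Arginine is the amidino donor of the GATM reaction. Of 18 tested genes of arginine supply and competing uses, 9 rose and 0 fell in the limma fit (10 and 1 at an unadjusted p under 0.05, median log2 difference 0.54), and after quantile normalization 10 rose and 1 fell (median 0.28). ASL, which releases arginine from argininosuccinate, rose to 306 ± 39.2 in the DLEU1-downregulated clone, against 123 ± 4.45 in the control clone (log2 difference 1.21, limma adjusted p = 6.98e-05). SLC25A15, the mitochondrial ornithine carrier, rose to 963 ± 94.3 in the DLEU1-downregulated clone, against 438 ± 73.5 in the control clone (adjusted p = 1.44e-04). Both rises were also past the threshold after quantile normalization, at 0.93 and 0.76.

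PRMT1, which methylates arginine residues within proteins, rose to 6179 ± 542 in the DLEU1-downregulated clone, against 3191 ± 236 in the control clone (log2 difference 0.95, limma adjusted p = 4.8e-06). Its other tested probe set did not pass. Neither PRMT1 nor AZIN2, an antizyme inhibitor, consumes free arginine. AZIN2 rose by 1.34 (adjusted p = 1.4e-04), with 33 and 42.7 in the DLEU1-downregulated clone and dim readings of 4.6 and 5.9 in the control clone. Its probe set was bright enough for the test through the DLEU1-downregulated readings. NOS3, the endothelial nitric oxide synthase, rose by 1.03 (adjusted p = 0.00115), with 59.8 and 65.4 in the DLEU1-downregulated clone and 18.3 and 26.9 in the control clone. NOS3 no longer passed once dim probe sets were kept in the fit (adjusted p = 0.0569).

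Glycine is the acceptor of that reaction. In the glycine list 4 of 11 tested genes rose and 1 fell (median log2 difference 0.16), while 4 rose and 4 fell after quantile normalization (median 0.03). The serine phosphatase PSPH rose by 0.98 (limma adjusted p = 2.53e-04), with means of 1903 in the DLEU1-downregulated clone and 958 in the control clone, and its other 2 tested probe sets rose too. 2 parts of the glycine cleavage system rose, DLD by 0.78 (adjusted p = 4.84e-04) and GCSH by 0.66 (adjusted p = 0.00237), and so did GCAT, of threonine breakdown, by 0.97 (adjusted p = 0.00201). Without control replicate 2, the dimmest array, the calls of DLD (adjusted p = 0.0695), GCSH (0.148) and GCAT (0.128) were lost. The gene that fell, named after its value was seen, was AMT of the same cleavage system, with 30.8 and 57.3 in the DLEU1-downregulated clone and 91.7 and 66.4 in the control clone (log2 difference -0.69, adjusted p = 0.0362). The AMT call was lost without control replicate 1 (adjusted p = 0.173).

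The methionine cycle makes the methyl donor that GAMT spends and clears the S-adenosylhomocysteine left over. The list taken for it also holds genes outside the cycle itself, such as ADI1, MTAP, PEMT, CBS and CTH. Of the 15 tested genes in this list, 8 rose and 0 fell in the limma fit (8 and 1 at an unadjusted p under 0.05, median log2 difference 0.72). After quantile normalization 8 rose and 1 fell (median 0.38). AHCY, which hydrolyses S-adenosylhomocysteine, rose to 4471 ± 326 in the DLEU1-downregulated clone, against 2088 ± 197 in the control clone (log2 difference 1.09, limma adjusted p = 9.5e-07). MAT2A, the S-adenosylmethionine synthetase of most tissues, rose by 0.90 (adjusted p = 2.15e-04), with means of 3291 in the DLEU1-downregulated clone and 1766 in the control clone. MAT1A, the liver form, rose by 1.58 at readings of 69.2 and 92.4 in the DLEU1-downregulated clone and 24.7 and 9.4 in the control clone (adjusted p = 1.35e-07). ADI1, of the methionine salvage pathway, rose by 0.97 (adjusted p = 1.87e-04), and 1 of its other 2 tested probe sets passed in the same direction.

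Adenylate and nucleoside diphosphate kinases pass phosphate between nucleotides and so act beside creatine kinase. In this list 4 of 9 tested genes rose and 1 fell (median log2 difference 0.49), and 3 rose and 2 fell after quantile normalization (median 0.19). AK4, a mitochondrial adenylate kinase family member, rose to 2660 ± 171 in the DLEU1-downregulated clone, against 1002 ± 143 in the control clone (log2 difference 1.40, limma adjusted p = 1.67e-08), and its other 3 tested probe sets rose too. AK3, of the mitochondrial matrix, rose by 0.75 (adjusted p = 0.00173) and the mitochondrial NME4 by 1.16 (adjusted p = 7.31e-05). The cytosolic AK1, abundant in muscle, fell to 38.7 ± 9.62 in the DLEU1-downregulated clone, against 101 ± 16 in the control clone (log2 difference -1.10, adjusted p = 2.66e-04). The other tested probe set of AK1 did not pass. The AK3 call was lost without control replicate 2 (adjusted p = 0.0972).

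Mitochondrial creatine kinase works beside the pores and carriers that let ATP out. Of 6 tested genes 2 rose and 0 fell in the limma fit (3 and 0 at an unadjusted p under 0.05, median log2 difference 0.30), and 2 rose and 1 fell after quantile normalization (median 0.03). The outer membrane channels VDAC1 and VDAC2 rose by 0.56 (adjusted p = 0.00702) and 0.46 (adjusted p = 0.0361). Both calls were lost without control replicate 2 (adjusted p = 0.321 and 0.374), and that of VDAC2 also without control replicate 1 (0.0542). The ADP/ATP carrier SLC25A4 had a log2 difference of 0.60 (adjusted p = 0.0502). The brightest probe set of the phosphate carrier SLC25A3 had one of 0.14 (adjusted p = 0.558), which was -0.08 after quantile normalization. The other tested probe set of SLC25A3 was past the threshold as higher.

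The AMP-activated kinase senses the same energy state. Of 10 tested genes of this kinase system, which includes STK11, CAB39 and CAMKK2 beside the subunits, 1 rose and 1 fell (median log2 difference 0.23). After quantile normalization 1 rose and 3 fell (median -0.09). PRKAG2, a regulatory subunit, rose to 229 ± 37 in the DLEU1-downregulated clone, against 58.2 ± 15.1 in the control clone (log2 difference 1.73, limma adjusted p = 1.5e-09). That probe set is of the kind prone to cross-hybridisation, and the other 2 tested probe sets of PRKAG2 rose too. PRKAA2, a catalytic subunit, fell to 1.1 and 6.1 in the DLEU1-downregulated clone, against 31.6 and 22.5 in the control clone (adjusted p = 0.0028). This probe set was bright enough for the test through its control readings, and no other probe set of PRKAA2 was tested. The control readings lay above the array medians and those of the DLEU1-downregulated clone under them. The PRKAA2 call was lost without control replicate 1 (adjusted p = 0.0546). PRKAG1 and PRKAB2 had log2 differences of 0.57 (adjusted p = 0.0985) and 0.42 (adjusted p = 0.255). Of the 2 other tested probe sets of PRKAB2, 1 was past the threshold as higher.

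Over all these lists 28 of 72 tested genes rose and 4 fell, with 28 and 13 after quantile normalization. The rises came to 8 without replicate 1 of the DLEU1-downregulated clone, 3 without its replicate 2 and 16 without control replicate 2. The falls in the limma fit came to 0 without replicate 1 of the DLEU1-downregulated clone (3 at an unadjusted p under 0.05) and 1 without control replicate 1. Of the 23 genes named above as rising or falling, 3 passed whichever array was left out, namely MAT1A, AK4 and PRKAG2. Leaving out an array leaves its clone with 1, so the spread in these fits comes from the other clone alone and the lone array is assumed to vary like it. With dim probe sets kept in the fit, SLC6A13 (adjusted p = 0.0656), GCSH (0.0597), AMT (0.218), VDAC1 (0.124) and VDAC2 (0.191) did not pass, and without an intensity trend VDAC1 (0.105) and VDAC2 (0.205) did not. VDAC2 also did not pass with a common trimmed mean (0.192).

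**Figure D3:**
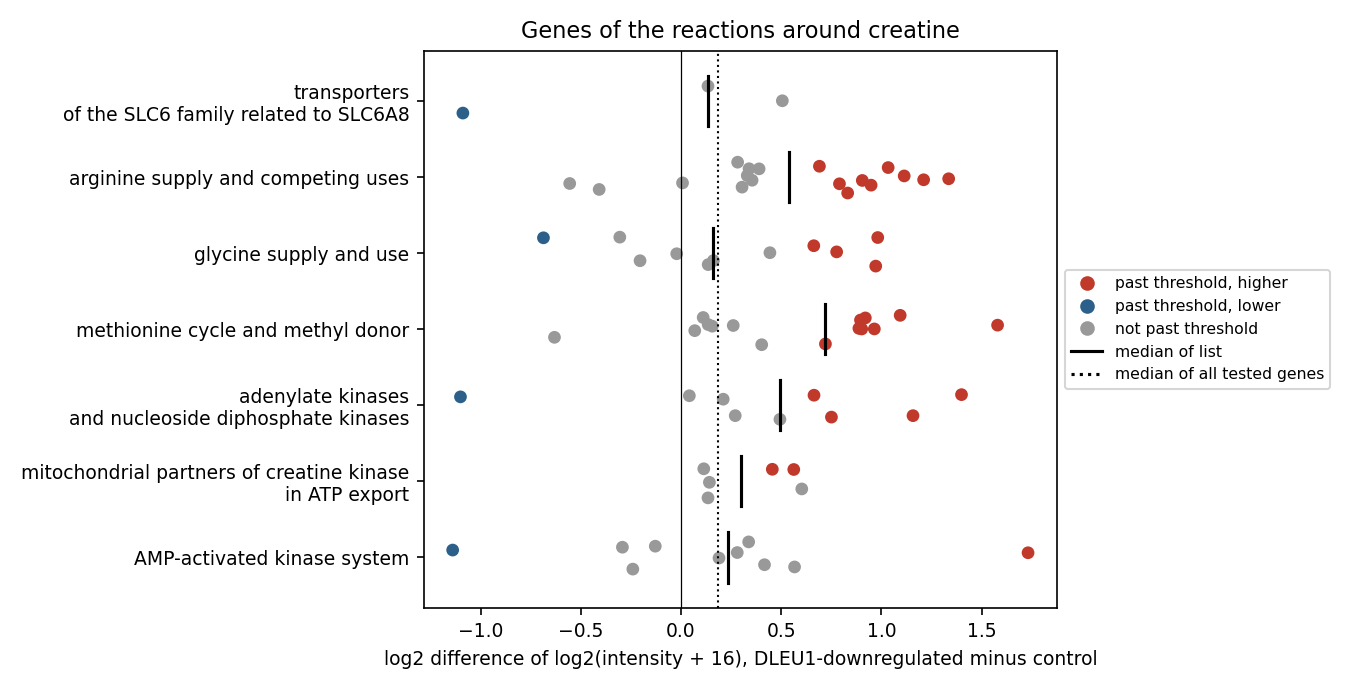
Log2 difference of log2(intensity + 16), DLEU1-downregulated minus control, for the tested genes of 7 lists around creatine, 1 point per gene, coloured by the limma threshold, with each list's median and the median of all tested genes (0.19, dotted). The methionine list has the highest median at 0.72.

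The place of GATM on chromosome 15 was examined through the genes next to it in RefSeq's order. The nearest gene with a probe set on one side, the nucleoside transporter SLC28A2, read 1.1 to 3.4 on all arrays and was not tested. On the other side lies AFG2B, an ATPase of the AAA family. Its brightest probe set read 898.8 and 1010.3 on the DLEU1-downregulated arrays and 945.9 and 741.8 on the control arrays, with overlap and a log2 difference of 0.18 ± 0.24 (SE, limma adjusted p = 0.646). Quantile normalization turned its sign, to -0.18 (adjusted p = 0.0505). A dimmer AFG2B probe set rose, with 62.2 and 84.2 in the DLEU1-downregulated clone and 30.7 and 25.2 in the control clone (adjusted p = 0.0012), and the remaining one did not pass (adjusted p = 0.468).

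Among the 10 nearest tested genes on each side, 2 of 20 rose and 4 fell, with log2 differences between -0.86 and 0.99 and a median of 0.02, and 2 rose and 6 fell after quantile normalization. Over the 432 tested genes of the chromosome, 71 rose and 30 fell, with a median of 0.14. The lowest difference among the 20, at -0.86 for the zinc transporter SLC30A4 (limma adjusted p = 0.00732), lay far from the -3.40 of GATM. SPG11, the gene of spatacsin, fell by 0.73 (adjusted p = 0.0125) and the phosphatase-like CTDSPL2 by 0.71 (adjusted p = 0.0306). Each of these 2 genes had 3 other tested probe sets, and none of those passed. The semaphorin SEMA6D fell by 0.81 at dim readings (adjusted p = 0.0413), in a probe set bright enough for the test through its control readings. MYEF2, an RNA-binding protein, rose by 0.99 (adjusted p = 0.00156) in a probe set prone to cross-hybridisation. Of its 4 other tested probe sets, 2 passed in the same direction. The Golgi protein GOLM2 rose by 0.66 (adjusted p = 0.0287), and 1 of its 2 other tested probe sets passed in the same direction. Without replicate 1 or without replicate 2 of the DLEU1-downregulated clone, limma called 0 of these 20 genes (1 rise and 1 fall at an unadjusted p under 0.05 in each case).

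**Figure D4:**
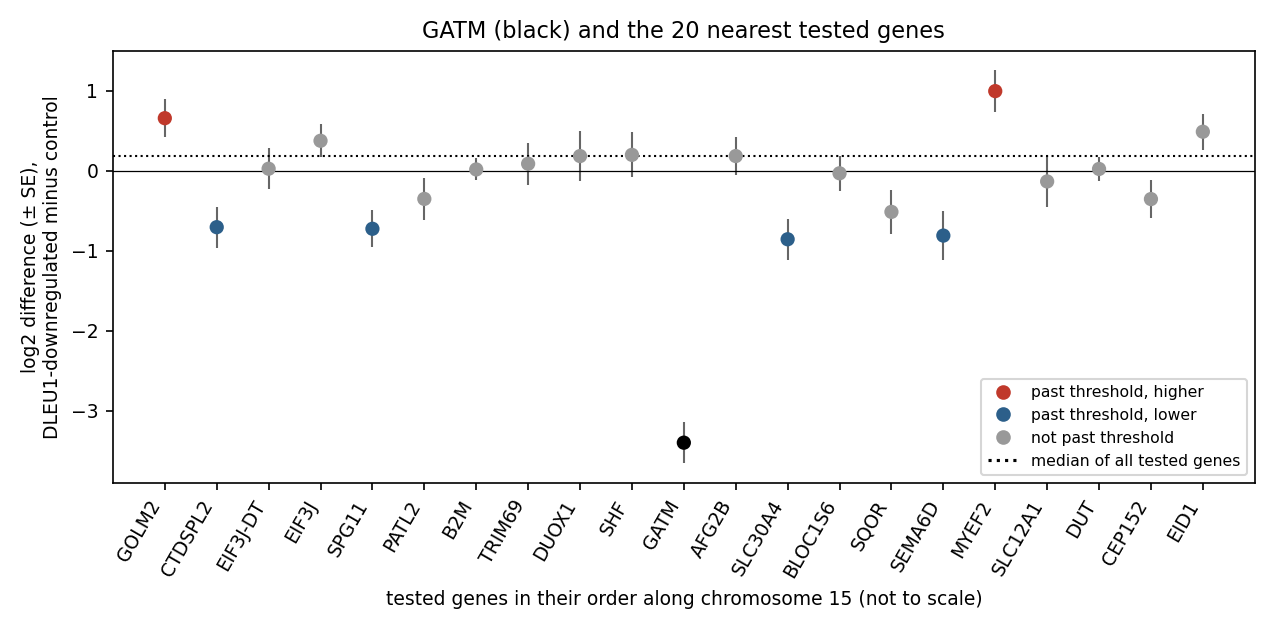
Log2 difference with its SE, DLEU1-downregulated minus control, for GATM (black) and the 20 nearest tested genes in their order along chromosome 15. GATM lies at -3.40 and its neighbours between -0.86 and 0.99.

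To find probe sets with the profile of GATM, the log2(intensity + 16) values of each were centred on their mean over the 4 arrays and compared with 216733_s_at by Euclidean distance. Among 23570 candidate probe sets, whose median distance was 3.6, the 5 nearest were 226587_at and 226591_at of PWAR6 at 0.197 and 0.379, 223178_s_at of NT5DC1 at 0.228, 201462_at of SCRN1 at 0.417 and 227478_at of SETBP1 at 0.425. The second GATM probe set lay at 0.427. PWAR6, a non-coding transcript of the Prader-Willi region, lies on chromosome 15 like GATM, while NT5DC1, SCRN1 and SETBP1 lie on chromosomes 6, 7 and 18.

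Their readings lay under the array medians in the DLEU1-downregulated clone and above them in the control clone. NT5DC1, a gene of the 5′-nucleotidase domain family, read 3.8 and 2.8 on the DLEU1-downregulated arrays and 189.5 and 135 on the control arrays. PWAR6 read 2.6 and 0.6 in 226587_at on the DLEU1-downregulated arrays, against 173.9 and 122.3 on the control arrays. In each of the 5 probe sets the groups stood far apart and control replicate 1 read above control replicate 2, the dimmest array. The probe sets were picked by their distance to GATM on these same arrays, so this pattern follows from the choice and is no further result. The likeness is over 4 arrays and 1 contrast.

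**Figure D5:**
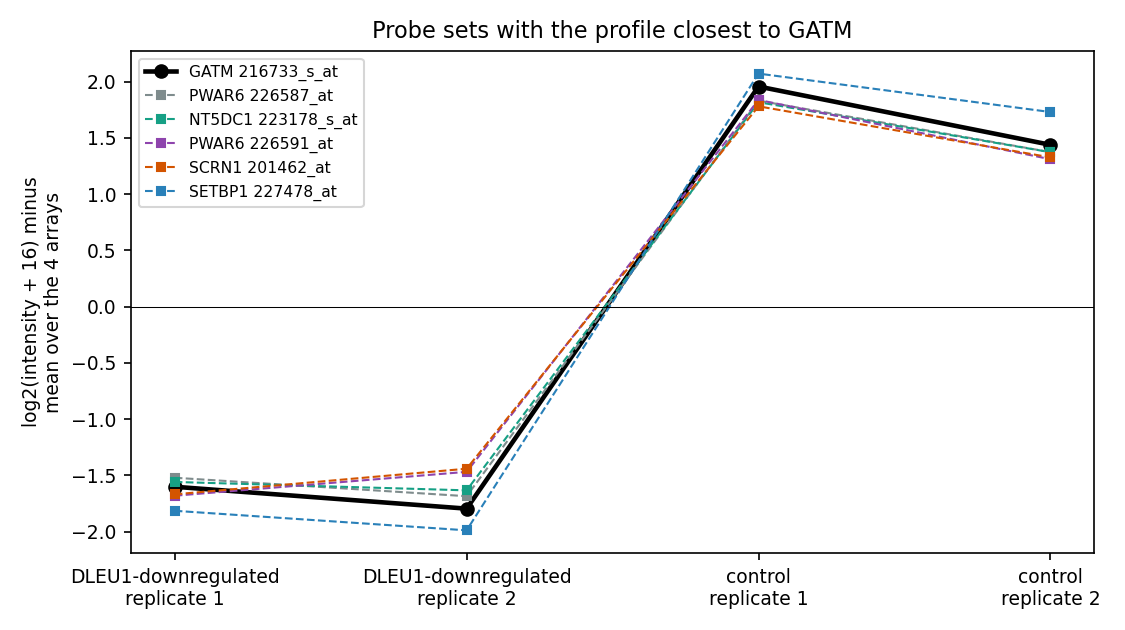
Centred log2(intensity + 16) on the 4 arrays for GATM 216733_s_at (solid) and the 5 nearest probe sets (dashed). All 6 lines are low on the DLEU1-downregulated arrays and high on the control arrays, which follows from the choice by distance to GATM.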

How the data were processed

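Signal was measured on 4 Affymetrix HG-U133 Plus 2.0 arrays. The authors deposited linear signal intensity per probe set, made with MAS5 per the submitters' processing notes; for the version, target and detection calls the sources used here give nothing. Trimmed means differ between arrays, so no common target is visible. The values were analysed as deposited, as log2(value + 16), with 62 control probe sets and 21845 dim ones (mean under the 40th percentile) left out. The fit was limma 3.58.1 (R 4.3.3), lmFit followed by trended eBayes with group as its term, adjusted by Benjamini-Hochberg over 32768 probe sets at a threshold of 0.05. Prior degrees of freedom were infinite as deposited, so probe sets of like brightness shared 1 spread, and 6.75 after quantile normalization. A gene's brightest probe set that names only it stood for the gene; symbols of the 2016 platform annotation (41091 probe sets with 1 symbol, 1801 with several, 11721 with none) were updated through RefSeq, which matched 41037.

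The members and lists were chosen with earlier results of these data known. Named were all member probe sets, DLEU1, up to 4 genes with the smallest p in each list and any past the threshold by at least 2-fold, the nearest genes to GATM and those of the 20 past the threshold, and the 5 probe sets most like GATM (not _x_at). Alternatives were other pseudocounts, filters, scalings and thresholds, no trend, a replicate term, leaving out each array, _x_at probe sets left out and fewer neighbours. The number of arrays limits the precision.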

Additional observations from a re-analysis of the deposited data

How the results depend on the processing

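Counts are given as higher and lower in the DLEU1-downregulated clone. All probe sets past the threshold came to 5620 and 1673. With no filter on dim probe sets they were 3329 and 1066, with an adjusted p threshold of 0.01 they were 3510 and 972, lower calls came to 5488 after quantile normalization and 6280 with a common trimmed mean, and higher calls to 10420 after median centring. With each array left out in turn, higher calls ran from 562 to 7464 and lower calls from 460 to 1890. In those fits, where a clone with 1 array is assumed to vary like the other, GAMT probe sets past the threshold ranged from 0 to 3 and GATM probe sets gave 2; the genes were chosen with this contrast known, so neither count speaks to stability. The creatine-linked genes ran from 3 to 26 higher and from 0 to 4 lower. Among them 2 fell with no filter, 13 after quantile normalization and 12 with a common trimmed mean. With no filter, 2 member probe sets were higher and 3 lower. There 205354_at of GAMT lost its call (limma adjusted p = 0.161), and 231686_at of GATM, dim on all arrays, passed (0.0349). The members were chosen with this contrast known, so nothing is read from these counts. The 20 neighbours of GATM ran from 0 to 3 higher and from 0 to 3 lower when an array was left out. They gave 1 and 2 with no filter, 1 and 1 at the threshold of 0.01, 4 rises after median centring, 9 falls with a common trimmed mean and 1 rise in eBayes without a trend, and with 5 genes on each side 0 rose and 2 fell. With an array left out, the log2 difference of DLEU1 ran from -1.24 to -0.83 and lost its call without either DLEU1-downregulated array. The causes were not tested, beyond the array offsets that the scalings remove.

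The replicate number was used as a block although nothing in the labels ties same-numbered arrays; the deviations of same-numbered arrays from their group means correlated at -0.052. With the block, 1252 probe sets were higher and 649 lower, 1 member probe set was higher, 6 creatine-linked genes were higher, limma called 0 neighbours either way (1 and 1 at an unadjusted p under 0.05), and DLEU1 kept -1.03 without a call (adjusted p = 0.162).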

Other observations

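CKMT2-AS1, a non-coding gene named for its position antisense to CKMT2 and chosen after its values were seen, was read above the array medians in both clones. Its 235443_at read 123.3 and 89.2 on the DLEU1-downregulated arrays and 134.2 and 100.6 on the control arrays, with overlap (limma adjusted p = 0.776). Its 242585_at read 51.7 and 75.1 on the DLEU1-downregulated arrays and 67.3 and 39.7 on the control arrays (adjusted p = 0.625).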
